A study of Homo sapiens with 18 samples.

Results

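The NF-kB subunits and inhibitors described here are 10 genes, taken by symbol from the 63241 genes of a count table of human prostate cancer cells. They are the activating subunits RELA, RELB and REL, the precursor subunits NFKB1 and NFKB2, the inhibitors of kappa B NFKBIA, NFKBIB and NFKBIE, the ubiquitin-editing enzyme TNFAIP3 and the ubiquitin ligase BIRC3. All 10 were found, and all 10 passed the filter on low counts in both cell line settings tested.

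Poly(A) RNA was sequenced in 18 libraries that fall into 6 groups of 3. LNCaP cells, which respond to androgen and derive from a prostate cancer metastasis in a lymph node, were left untreated or exposed for 24 h to 10 or 20 µM of genistein or of baicalein. PC-3 cells, which grow without androgen and derive from a metastasis in bone, were analysed untreated only. Every group carries the label wild type and grew in RPMI-1640 with serum and antibiotics; the sample labels call the controls untreated, whereas the treatment protocol gives them DMSO vehicle. Per its title, the study examines both plant flavonoids as sensitizers of prostate cancer to a radioactive ligand of PSMA. The drugs are isomers, genistein of the isoflavone and baicalein of the flavone type, with the phenyl ring and the hydroxyl groups placed differently on the core. The labels do not state whether replicate libraries came from separate cultures. The baicalein doses are those in the headers of the count columns; the FPKM headers of the same table name 20 µM for all 6 baicalein libraries, so every baicalein dose result rests on the count headers being right.

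NF-kB factors are dimers of Rel proteins that bind short kappa B sites in promoters and enhancers. In the canonical arm, inhibitors of kappa B hold RELA dimers in the cytoplasm until the IKK complex marks the inhibitors for degradation, and the freed dimers then induce several of their own inhibitors, among them NFKBIA and TNFAIP3. In the noncanonical arm, the kinase NIK (MAP3K14) drives processing of the NFKB2 precursor p100 to p52, which pairs with RELB, while BIRC3, BIRC2 and TRAF proteins keep NIK low. RNA levels, which are what was measured here, do not show where the proteins are or whether a precursor was processed.

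The proximal promoters show where kappa B sequences lie in these genes, and the 5 printed here set genes with a match beside 1 gene without. RefSeq promoter sequences (GRCh38.p14, the 250 bases before the annotated start, 5′ to 3′ on the gene's strand) were found for 8 of the 10 genes; RELB and NFKBIE had no entry. Capitals mark matches of either strand to the kappa B consensus, a 10-base degenerate motif.
NFKB1: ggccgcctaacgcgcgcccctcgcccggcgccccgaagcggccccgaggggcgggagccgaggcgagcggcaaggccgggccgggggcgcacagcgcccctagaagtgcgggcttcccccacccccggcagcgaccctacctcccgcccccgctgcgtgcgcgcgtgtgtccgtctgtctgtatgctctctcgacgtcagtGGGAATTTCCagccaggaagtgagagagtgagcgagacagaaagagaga
NFKBIA: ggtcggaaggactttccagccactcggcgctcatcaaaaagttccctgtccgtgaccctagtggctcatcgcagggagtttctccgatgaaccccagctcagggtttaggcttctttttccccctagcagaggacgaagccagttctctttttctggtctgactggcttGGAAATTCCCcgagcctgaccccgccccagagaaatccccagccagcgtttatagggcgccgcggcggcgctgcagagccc
TNFAIP3: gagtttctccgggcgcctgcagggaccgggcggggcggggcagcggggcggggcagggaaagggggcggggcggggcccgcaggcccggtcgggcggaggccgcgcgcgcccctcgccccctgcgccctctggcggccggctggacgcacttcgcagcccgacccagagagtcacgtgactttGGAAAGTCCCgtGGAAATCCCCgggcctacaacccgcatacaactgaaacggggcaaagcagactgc
BIRC3: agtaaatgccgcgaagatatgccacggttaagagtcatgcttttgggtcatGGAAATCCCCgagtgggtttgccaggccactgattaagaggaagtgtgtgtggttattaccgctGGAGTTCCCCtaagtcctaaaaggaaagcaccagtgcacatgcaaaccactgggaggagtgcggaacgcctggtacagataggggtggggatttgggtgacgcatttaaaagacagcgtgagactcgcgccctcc
NFKB2: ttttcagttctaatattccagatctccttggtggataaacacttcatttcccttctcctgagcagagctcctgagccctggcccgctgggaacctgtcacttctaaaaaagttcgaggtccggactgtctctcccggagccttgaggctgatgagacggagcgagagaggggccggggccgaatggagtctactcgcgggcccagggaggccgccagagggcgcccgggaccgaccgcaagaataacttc
The NFKB1 window lies at chr4:102501109-102501358 on the plus strand and holds 1 match, 49 to 40 bases before the start. NFKBIA (chr14:35404750-35404999, minus strand) holds 1 match, 81 to 72 bases before the start. TNFAIP3 (chr6:137867009-137867258, plus strand) holds 2, at 67 to 58 and 55 to 46 bases, separated by a gap of only 2 bases. BIRC3 (chr11:102317234-102317483, plus strand) also holds 2, farther out, at 199 to 190 and 135 to 126 bases. NFKB2 (chr10:102393860-102394109, plus strand) holds 0. Of the promoters not printed, REL holds 2 overlapping matches, 47 to 37 bases before its start, and RELA and NFKBIB hold 0. The RELA window (chr11:65663858-65664107, minus strand) does not adjoin the counted RELA gene, whose start lies at 65663090. Among all 35114 promoter windows of the same length, 5.21% hold at least 1 match. A match is a stretch of letters and does not show binding, and 0 matches says only that these letters are missing from this window.

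Levels are given as CPM, counts scaled to library size, with TMM factors over all 18 libraries, and, where genes are compared with each other, as CPM per kb of annotated exon (GENCODE 29). Untreated LNCaP cells held NFKBIA at the highest level per length, 15.05 ± 2.17 CPM per kb (SD, n = 3), followed by NFKB1 at 9.49 ± 0.525, RELA at 8.99 ± 0.449, NFKB2 at 5.00 ± 0.379, NFKBIB at 4.07 ± 0.205 and NFKBIE at 2.08 ± 0.196 CPM per kb. The remaining members were below 1 CPM per kb, namely BIRC3 at 0.850 ± 0.173, RELB at 0.585 ± 0.0280, TNFAIP3 at 0.516 ± 0.192 and REL at 0.308 ± 0.206. The canonical pair NFKB1 and RELA thus stood well above the noncanonical partner RELB in untreated LNCaP cells.

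**Figure D1:**
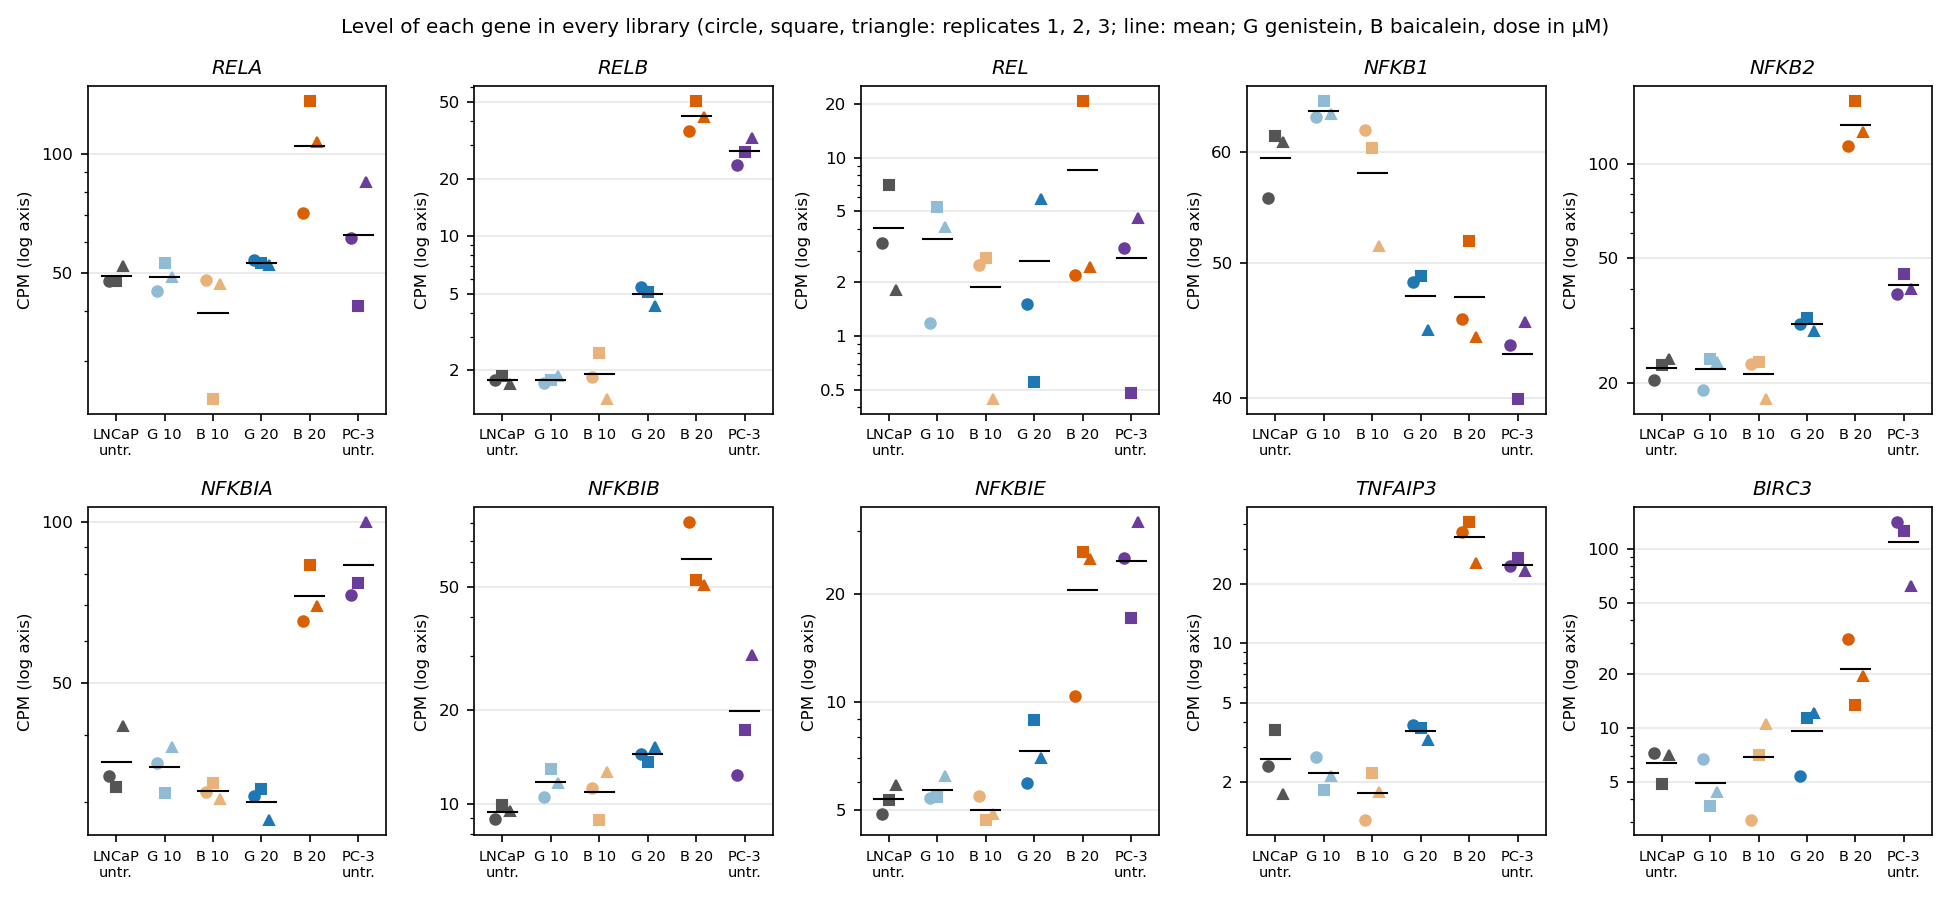
Level of each of the 10 genes in every library, as CPM on a log axis, by group; circles, squares and triangles are replicates 1, 2 and 3 and lines are group means. RELB, NFKB2, NFKBIB and TNFAIP3 stand higher in the 3 baicalein 20 µM libraries than in every other LNCaP library, NFKB1 stands lower in both 20 µM groups than in untreated LNCaP, and REL scatters in every group.

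In LNCaP, baicalein at 20 µM raised 8 of the 10 genes above untreated cells and lowered 0. The largest rises were those of RELB (25.2-fold), TNFAIP3 (13.9-fold), NFKBIB (6.84-fold) and NFKB2 (6.25-fold), with smaller rises of NFKBIE, BIRC3, RELA and NFKBIA. Genistein at 20 µM raised 3 of 10, RELB (2.85-fold), NFKBIB (1.56-fold) and NFKB2 (1.41-fold). At 10 µM, 0 of 10 were called with either drug. These counts are read against the share of all 16985 tested genes that were called at an adjusted p under 0.05 (edgeR quasi-likelihood test, Benjamini-Hochberg over all genes): 57.2% with baicalein at 20 µM (29.4% higher, 27.8% lower), 16.4% with genistein at 20 µM (8.31% higher, 8.12% lower), 0.4% with baicalein at 10 µM (0.0883% higher, 0.312% lower) and 0.112% with genistein at 10 µM (0.0353% higher, 0.0765% lower). The median log2 fold change of the 10 genes with baicalein at 20 µM was 1.91, against 0.04 over all genes tested, and with genistein at 20 µM it was 0.48 against 0.05. Fold changes come from fits with their own scaling and differ slightly from ratios of the CPM shown; all 4 drug comparisons share the same 3 untreated libraries.

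**Figure D2:**
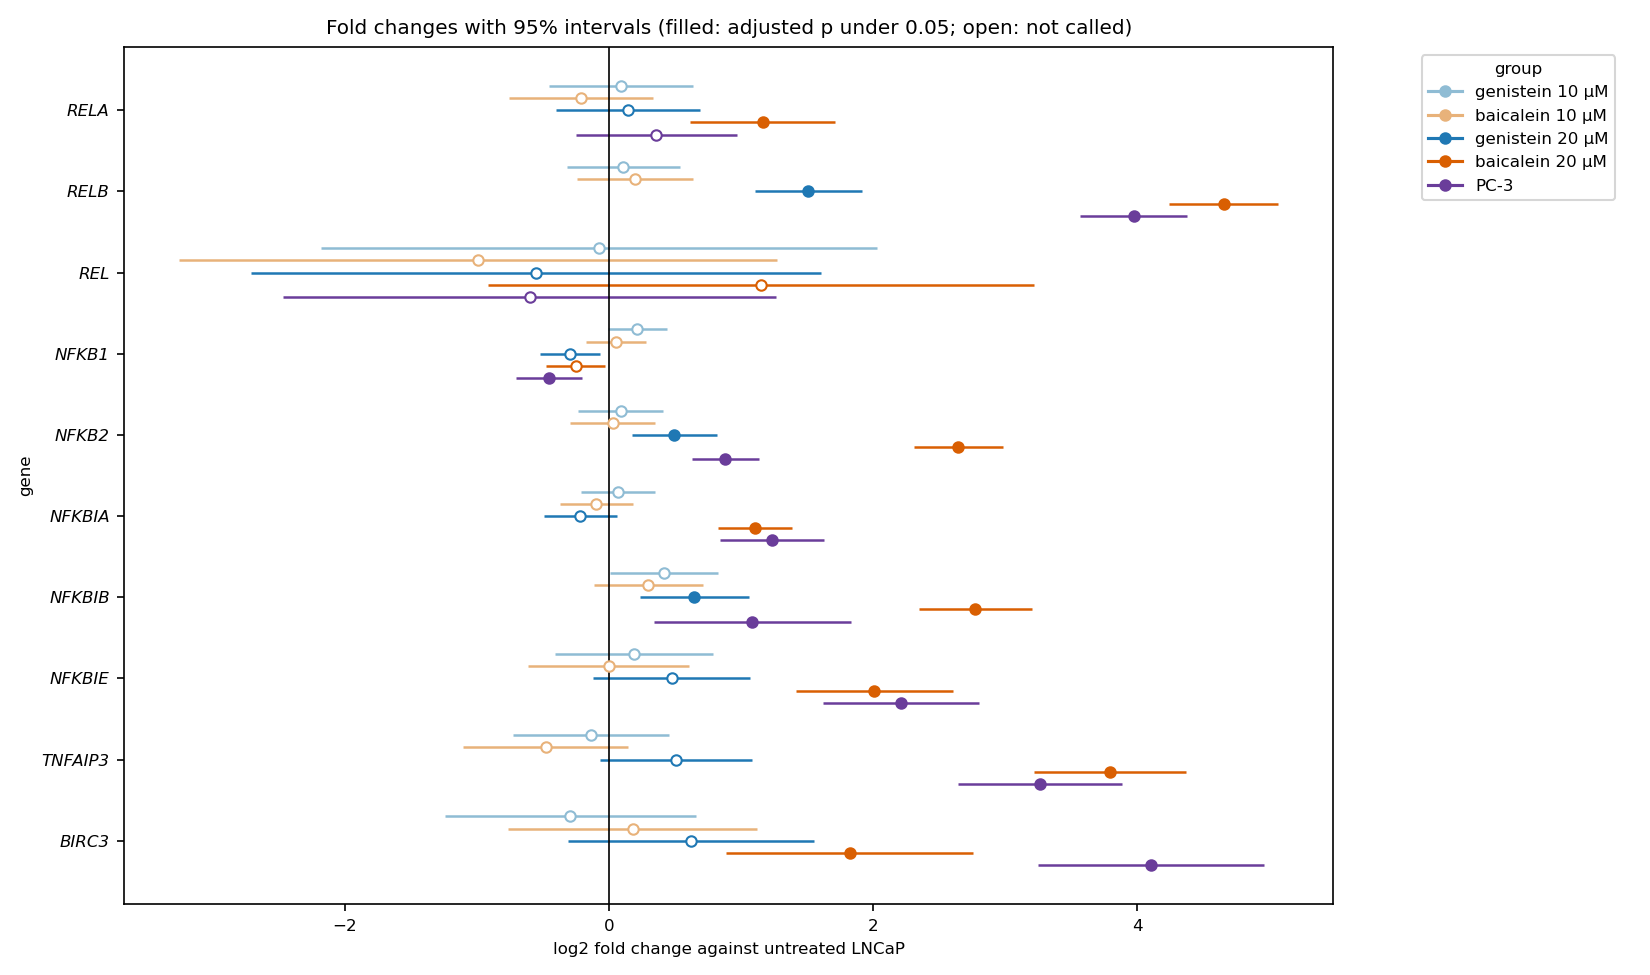
Log2 fold change against untreated LNCaP (x axis) of each gene (y axis) for the 4 drug groups and untreated PC-3; points are estimates, lines 95% intervals, filled points are called at an adjusted p under 0.05. RELB lies at 4.65 with baicalein 20 µM, at 1.51 with genistein 20 µM and at 3.97 in PC-3, and the intervals of REL are the widest of all 10 genes in each of the 5 comparisons.

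RELB, the activating subunit of the noncanonical arm, was measured at 1.78, 1.86 and 1.69 CPM in the 3 untreated LNCaP libraries, at 5.46, 5.12 and 4.35 CPM with genistein at 20 µM, and at 35.3, 50.9 and 41.7 CPM with baicalein at 20 µM. The 10 µM libraries lay between 1.42 and 2.48 CPM, overlapping the untreated ones. All 3 libraries of each 20 µM group stood above all untreated libraries, and the 2 drugs did not overlap. RELB rose by 4.65 ± 0.19 (log2 fold change ± SE) with baicalein at 20 µM (edgeR adjusted p = 1.68e-09) and by 1.51 ± 0.19 with genistein at 20 µM (edgeR adjusted p = 0.000194). The untreated level rests on 93 counts over the 3 libraries, and the baicalein 20 µM level on 1436 counts.

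RELA, the main activating subunit of the canonical arm, was measured at 47.7, 47.7 and 52.0 CPM in untreated LNCaP, at 53.9, 52.8 and 52.5 CPM with genistein at 20 µM and at 70.8, 136 and 107 CPM with baicalein at 20 µM. The baicalein 20 µM libraries all stood above the others of LNCaP, with a wide spread among them. In the baicalein 10 µM group, replicate 2 stood at 24.1 CPM, below 48.0 and 47.0 CPM in replicates 1 and 3. RELA rose 2.24-fold with baicalein at 20 µM (log2 1.16 ± 0.25, edgeR adjusted p = 0.00167); with genistein at 20 µM its log2 fold change was 0.14, with a 95% interval from -0.40 to 0.69.

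REL, the third activating subunit and best known from lymphoid cells, was low and scattered. Its levels were 3.30, 7.06 and 1.81 CPM in untreated LNCaP and 2.19, 20.8 and 2.43 CPM with baicalein at 20 µM, where replicate 2 alone held 261 of the group's 309 counts. With baicalein at 20 µM the interval of its log2 fold change ran from -0.92 to 3.22, so a change was not detectable beyond the spread between libraries. REL also shares 43.3% of its annotated exon bases with AC010733.2, which lies on the same strand, so its counts are uncertain.

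Among the precursors, NFKB2, which encodes p100, was measured at 20.6, 22.8 and 23.9 CPM in untreated LNCaP, at 31.0, 32.3 and 29.5 CPM with genistein at 20 µM and at 114, 158 and 126 CPM with baicalein at 20 µM. The 3 groups were ordered without overlap. NFKB2 rose by 2.64 ± 0.16 (log2) with baicalein at 20 µM (edgeR adjusted p = 2.88e-08). Its rise with genistein at 20 µM, 0.49 ± 0.15 (edgeR adjusted p = 0.0387), was not called when any 1 of the 6 libraries was left out (adjusted p up to 0.133).

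NFKB1, which encodes p105, the precursor of the RELA partner p50, was lower in level at 20 µM of either drug, short of a call. It stood at 55.6, 61.6 and 61.0 CPM in untreated LNCaP, at 48.4, 48.9 and 44.8 CPM with genistein at 20 µM and at 45.6, 51.8 and 44.3 CPM with baicalein at 20 µM. All 6 libraries at 20 µM lay below all 3 untreated ones, with differences of log2 -0.30 ± 0.10 with genistein (edgeR adjusted p = 0.0706) and -0.25 ± 0.10 with baicalein (edgeR adjusted p = 0.0522). Both passed the threshold in several alternatives, DESeq2 among them (adjusted p = 0.00819 and 0.0118). Against 10 µM of the same drug, without the untreated libraries, NFKB1 fell by 0.51 with genistein (edgeR adjusted p = 0.00711) and by 0.31 with baicalein (edgeR adjusted p = 0.0241), and the baicalein call was lost without replicate 1 or 2 of the 10 µM group or replicate 1 or 3 of the 20 µM group (adjusted p up to 0.0904).

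The partners of each arm can be set against each other within a library. Per length, RELB stood at 0.0653 ± 0.00605 of RELA in untreated LNCaP (SD, n = 3), at 0.169 ± 0.0175 with genistein at 20 µM and at 0.758 ± 0.121 with baicalein at 20 µM. NFKB2 stood at 0.526 ± 0.0175 of NFKB1 in untreated LNCaP, at 0.911 ± 0.0149 with genistein at 20 µM and at 3.92 ± 0.391 with baicalein at 20 µM. For both ratios, all 3 libraries of each 20 µM group lay above all untreated libraries, and baicalein above genistein. In untreated PC-3 the ratios were 0.860 ± 0.295 and 1.34 ± 0.186. No test was run on these ratios, which show unequal levels and not which partner changed. For RELB over RELA both 10 µM groups overlapped the untreated libraries, although replicate 2 of baicalein at 10 µM, the library with the low RELA value, stood at 0.185. For NFKB2 over NFKB1 baicalein at 10 µM overlapped them (0.486 to 0.541 against 0.516 to 0.546), while genistein at 10 µM lay below, at 0.418, 0.513 and 0.513.

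**Figure D3:**
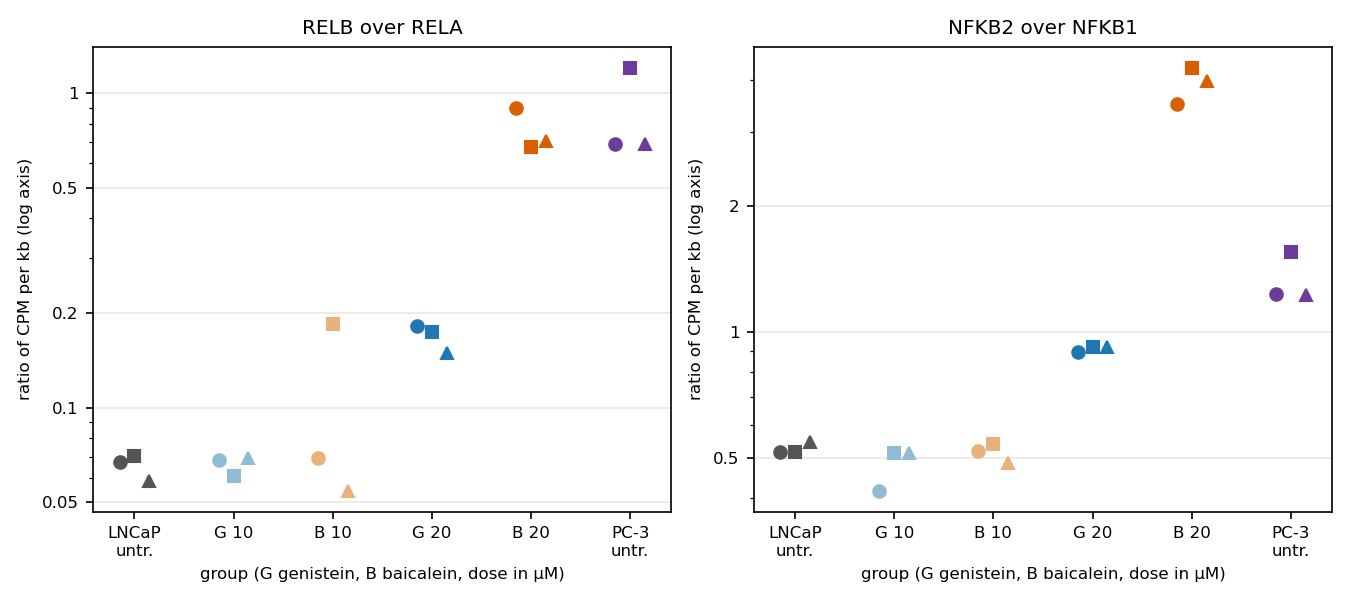
Ratio of CPM per kb within each library, RELB over RELA (left) and NFKB2 over NFKB1 (right), on log axes, by group; circles, squares and triangles are replicates 1, 2 and 3. The baicalein 20 µM libraries lie between 0.674 and 0.897 for RELB over RELA and between 3.50 and 4.27 for NFKB2 over NFKB1, above all other LNCaP libraries.

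The 3 inhibitors of kappa B all rose with baicalein at 20 µM, by unequal amounts. NFKBIB, which encodes IkB beta, was measured at 8.97, 9.91 and 9.50 CPM in untreated LNCaP, at 14.5, 13.6 and 15.3 CPM with genistein at 20 µM and at 80.5, 52.4 and 50.6 CPM with baicalein at 20 µM. The groups were ordered without overlap, and replicate 1 stood above the other two baicalein libraries. NFKBIB rose by 2.77 ± 0.20 (log2) with baicalein at 20 µM (edgeR adjusted p = 1.43e-07). The genistein rise, 0.65 ± 0.19 (edgeR adjusted p = 0.0350), was not called when any 1 of the 6 libraries was left out (adjusted p up to 0.107).

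NFKBIE, which encodes IkB epsilon, was measured at 4.88, 5.33 and 5.88 CPM in untreated LNCaP and at 10.4, 26.1 and 25.0 CPM with baicalein at 20 µM. Replicate 1 of that group was the lowest of the 3, and still above all untreated libraries. It rose 4.02-fold (log2 2.01 ± 0.28, edgeR adjusted p = 4.22e-05). With genistein at 20 µM it stood at 5.97, 8.93 and 7.01 CPM, and its log2 fold change had a 95% interval from -0.12 to 1.07.

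NFKBIA, which encodes IkB alpha, the inhibitor that is resynthesised fastest after canonical signalling, was measured at 33.5, 32.0 and 41.6 CPM in untreated LNCaP and at 65.4, 83.2 and 69.8 CPM with baicalein at 20 µM. It rose 2.15-fold (log2 1.10 ± 0.13, edgeR adjusted p = 1.05e-05). With genistein at 20 µM it stood at 30.8, 31.7 and 27.8 CPM, below all 3 untreated libraries, but the log2 difference of -0.22 had an interval from -0.49 to 0.06 and was not called. NFKBIA was the highest of the 3 inhibitors per length in untreated LNCaP, and with baicalein at 20 µM it stood at 30.7 ± 3.90 CPM per kb beside NFKBIB at 26.3 ± 7.20 CPM per kb (SD, n = 3).

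TNFAIP3, or A20, removes ubiquitin chains that carry signals from TNF and Toll-like receptors to IKK. It was measured at 2.41, 3.66 and 1.75 CPM in untreated LNCaP, at 3.87, 3.74 and 3.24 CPM with genistein at 20 µM and at 36.4, 40.7 and 25.5 CPM with baicalein at 20 µM. Genistein overlapped untreated cells and baicalein did not overlap either. TNFAIP3 rose by 3.79 ± 0.27 (log2) with baicalein at 20 µM (edgeR adjusted p = 1.35e-07), on 1160 counts against 135 untreated; with genistein the interval ran from -0.07 to 1.08.

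BIRC3, or cIAP2, a ubiquitin ligase of the TNF receptor complex, was measured at 7.24, 4.90 and 7.05 CPM in untreated LNCaP, at 5.38, 11.4 and 12.2 CPM with genistein at 20 µM and at 31.2, 13.4 and 19.5 CPM with baicalein at 20 µM. The baicalein libraries stood above the others, with replicate 2 close to the genistein values. BIRC3 rose 3.53-fold with baicalein at 20 µM (log2 1.82 ± 0.43, edgeR adjusted p = 0.00299), and with genistein the interval of the log2 fold change ran from -0.31 to 1.55.

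The baicalein 20 µM libraries varied among themselves in a pattern shared by several members. Replicate 2 was the highest for RELA, RELB, REL, NFKB1, NFKB2, NFKBIA, NFKBIE and TNFAIP3, and replicate 1 was the lowest for RELA, RELB, NFKB2, NFKBIA and NFKBIE while it was the highest for NFKBIB and BIRC3. The share of counts from mitochondrially encoded genes was 10.5%, 14.5% and 12.4% in these 3 libraries, against 4.15% to 6.35% in the other 15. With mitochondrial genes left out before scaling, all 8 members called with baicalein at 20 µM were called again, while NFKB2 and NFKBIB were no longer called with genistein at 20 µM (edgeR adjusted p = 0.0571 and 0.0517).

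**Figure D4:**
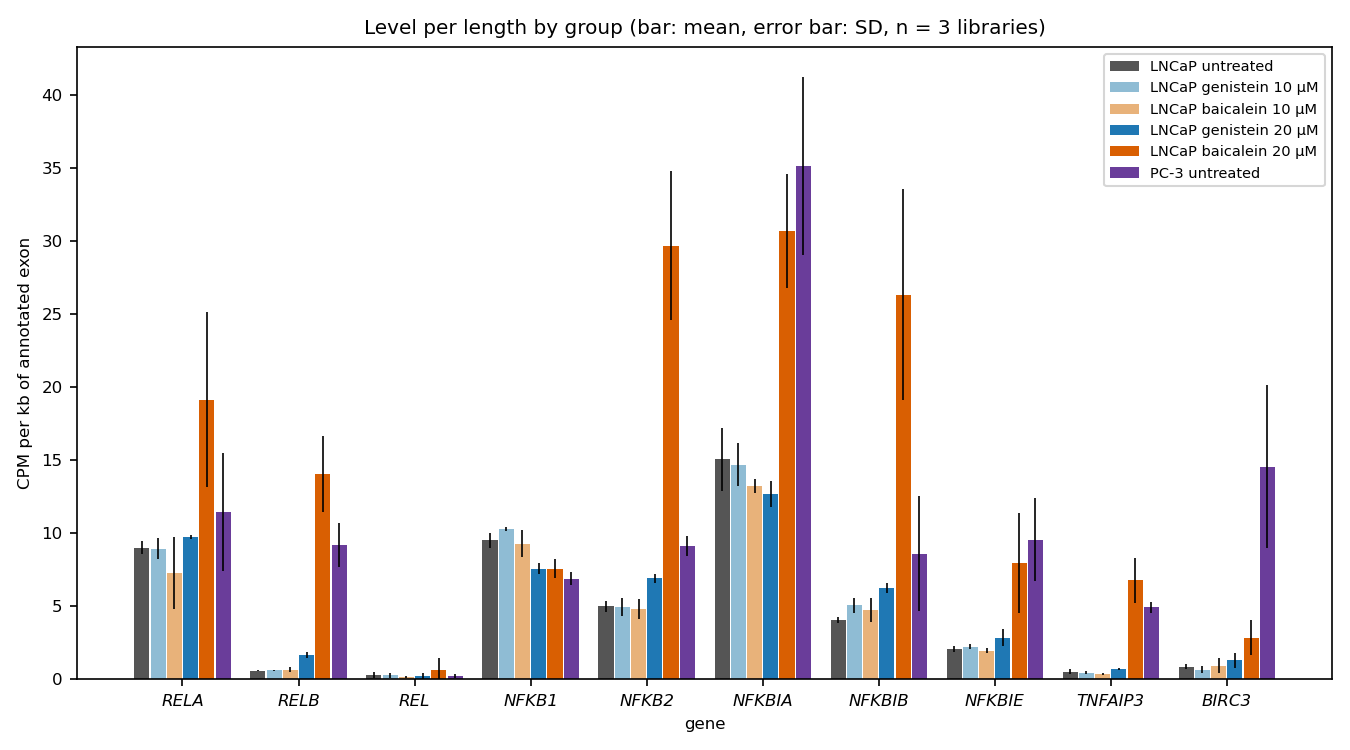
Level per length of each gene by group, as mean CPM per kb of annotated exon; error bars are SD over 3 libraries. In untreated LNCaP NFKBIA is highest at 15.05 CPM per kb, whereas with baicalein at 20 µM NFKBIA (30.7), NFKB2 (29.7) and NFKBIB (26.3) all stand above RELA and NFKB1.

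At 10 µM, the lower dose, edgeR called 0 of 10 members with either drug. With p under 0.05 before adjustment there was 1 with genistein (NFKBIB, chosen here after its value was seen, log2 0.42 ± 0.19) and 0 with baicalein, and DESeq2 called 0 for both. The intervals show how far these comparisons reach: for RELB the log2 fold change lay between -0.32 and 0.54 with genistein and between -0.24 and 0.63 with baicalein, well below the values at 20 µM. Other members were less closely bounded. With genistein, the 10 µM intervals of NFKBIB (0.0049 to 0.83) and BIRC3 (-1.25 to 0.66) contained their 20 µM values, 0.65 and 0.62. That of NFKB2 (-0.24 to 0.41) did not contain its 20 µM value of 0.49.

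The dose step from 10 to 20 µM differed between the drugs. With baicalein it raised 8 of 10 members and lowered 1, NFKB1, against 54.4% of all genes called (26.8% higher, 27.5% lower), whereas with genistein it raised 1, RELB, and lowered 1, NFKB1, against 13.2% (5.59% higher, 7.63% lower). RELB rose by 4.46 ± 0.19 over the baicalein step and by 1.40 ± 0.19 over the genistein step (log2, edgeR adjusted p = 3.59e-09 and 0.000494). The difference between the steps was itself tested, as an interaction in the same fit, and 7 members had a smaller genistein step, against 32.8% of all genes called (17.3% higher, 15.5% lower). These were RELA, RELB, NFKB2, NFKBIA, NFKBIB, NFKBIE and TNFAIP3. For BIRC3 the difference was -0.73 with an interval from -2.05 to 0.60, for NFKB1 -0.20 from -0.52 to 0.12, and for REL -2.62 from -5.75 to 0.51.

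Setting the isomers against each other at the same dose and time gave 20 comparisons, 10 genes at 2 doses, with p-values adjusted over all genes tested. At 20 µM, 8 members were lower with genistein than with baicalein and 0 higher, against 48.7% of all genes called (25.4% higher, 23.3% lower). TNFAIP3 was 9.77-fold lower with genistein (log2 -3.29 ± 0.26, edgeR adjusted p = 7.81e-07), RELB 8.84-fold, NFKB2 4.44-fold and NFKBIB 4.37-fold. NFKBIE, NFKBIA, BIRC3 and RELA were between 2.03- and 2.89-fold lower. The BIRC3 call (edgeR adjusted p = 0.0327) was lost without replicate 1 or 2 of genistein or replicate 1 or 3 of baicalein (adjusted p up to 0.156). NFKB1 differed by log2 -0.04, with an interval from -0.27 to 0.18. At 10 µM, edgeR called 0 of 10 against 0.00589% of all genes, with 0 members passing before adjustment and 0 by DESeq2. Without REL, whose interval ran from -1.36 to 3.20, the intervals of the log2 differences at 10 µM lay between -1.44 (BIRC3) and 0.98 (TNFAIP3), and that of RELB between -0.53 and 0.36.

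Untreated PC-3 cells differed from untreated LNCaP cells in 8 of the 10 genes, 7 higher and 1 lower, in a fit of the 6 untreated libraries in which 74.9% of 17259 genes were called (37% higher, 37.9% lower). BIRC3, at 141, 125 and 61.9 CPM in PC-3, was 17.2-fold higher (log2 4.10 ± 0.36, edgeR adjusted p = 5.82e-05), the largest difference among the members. RELB stood at 23.5, 27.5 and 32.5 CPM, 15.7-fold above LNCaP (edgeR adjusted p = 2.18e-06), and TNFAIP3 at 24.4, 26.9 and 23.1 CPM, 9.59-fold above (edgeR adjusted p = 3.27e-05). None of these libraries overlapped those of untreated LNCaP.

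The inhibitors of kappa B were all higher in PC-3. NFKBIE was 4.62-fold higher (edgeR adjusted p = 0.00018) and NFKBIA 2.35-fold (edgeR adjusted p = 0.000415). NFKBIB stood at 12.4, 17.3 and 30.2 CPM and was 2.12-fold higher (edgeR adjusted p = 0.0163), a call lost without replicate 1 of untreated LNCaP (adjusted p = 0.0513). NFKB2, at 38.6, 44.5 and 39.9 CPM, was 1.84-fold higher (edgeR adjusted p = 0.000241). NFKB1 was the member that was lower, at 43.7, 40.0 and 45.4 CPM, 1.37-fold below LNCaP (edgeR adjusted p = 0.00568). RELA, at 61.2, 41.2 and 85.0 CPM, overlapped LNCaP and was not called (log2 0.36, interval -0.25 to 0.97), although it was without replicate 2 of PC-3 (adjusted p = 0.0200). REL ran from 0.481 to 4.58 CPM with an interval from -2.47 to 1.26.

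The order of groups differed by gene. For RELB, NFKB2 and NFKBIB, baicalein at 20 µM was the highest group, PC-3 the next and genistein at 20 µM after it, and the first pair did not overlap for any of the 3. For TNFAIP3 and RELA the same groups led, but PC-3 and baicalein at 20 µM overlapped. For BIRC3, PC-3 was the highest and its libraries did not overlap baicalein at 20 µM; for NFKBIA and NFKBIE, PC-3 was also the highest by mean but overlapped it. NFKB1 had the reverse order, with PC-3 the lowest and both 20 µM groups next, overlapping each other. PC-3 and the drug groups share the untreated LNCaP libraries as their reference, so their fold changes are not independent of each other.

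The rest of the pathway was followed with a list of 76 other genes in 5 roles, of which 56 were tested in LNCaP and 68 in the cell line comparison. With baicalein at 20 µM, 31 of 56 rose and 12 fell, where 57.2% of all genes were called (29.4% higher, 27.8% lower), with a median log2 fold change of 0.61 against 0.04 over all genes. Some listed genes passed the count filter only through this group and could only rise, such as TNF (219 counts against 1 untreated) and TRAF1 (38 against 0). Receptors and ligands were split, with 4 higher and 4 lower of 11: the TWEAK receptor TNFRSF12A rose 12.6-fold (edgeR adjusted p = 1.82e-07) and the interleukin-1 receptor IL1R1 fell 4.91-fold (edgeR adjusted p = 6.71e-08). Adaptors and ubiquitin enzymes were also split, 10 higher and 6 lower of 19, with the interleukin-1 and Toll-like receptor adaptors IRAK1 (log2 -1.64 ± 0.18) and MYD88 (log2 -1.06 ± 0.13) among those that fell.

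Of the 6 IKK-related kinases, 4 rose and 1 fell with baicalein at 20 µM. This count and those below stand against 57.2% of all genes called (29.4% higher, 27.8% lower). IKBKG, the regulatory subunit NEMO, rose by 0.74 ± 0.11 (log2, edgeR adjusted p = 0.000101), and IKBKE, a noncanonical IKK, fell by 1.31 on the log2 scale (edgeR adjusted p = 0.000127) on 38 counts against 158. MAP3K14, which encodes NIK, rose 3.73-fold over untreated (edgeR adjusted p = 0.001) and 7.18-fold over the baicalein step from 10 to 20 µM (edgeR adjusted p = 7.82e-05); its level was 7.89 ± 2.13 CPM untreated, 3.81 ± 1.42 CPM with baicalein at 10 µM and 27.8 ± 11.9 CPM at 20 µM (SD, n = 3). Atypical inhibitors and feedback genes had 8 higher and 0 lower of 12, with the deubiquitinase CYLD up 5.40-fold (edgeR adjusted p = 3.91e-07) and N4BP1 up 2.37-fold (edgeR adjusted p = 2.33e-06). Only 8 of 21 listed target genes passed the count filter in LNCaP. With baicalein at 20 µM 5 rose and 1 fell, among them GADD45B, a stress-induced gene, 30.8-fold (edgeR adjusted p = 1.68e-08) and the syndecan SDC4, 3.97-fold. The chemokines CXCL8 (611 counts against 6 untreated) and CCL20 (81 against 4) passed the filter only through the baicalein 20 µM libraries. Their rises were thus set by the filter and do not count as a result about the targets.

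With genistein at 20 µM, 8 of these 56 genes were higher and 3 lower, where 16.4% of all genes were called (8.31% higher, 8.12% lower), so the list's share was near that of all genes. TNFRSF12A rose 2.49-fold (edgeR adjusted p = 0.00439), SDC4 2.59-fold (edgeR adjusted p = 3.86e-05) and RBCK1, a subunit of the linear ubiquitin ligase, 1.77-fold (edgeR adjusted p = 0.00257), while the deubiquitinase OTUD7B fell 1.35-fold (edgeR adjusted p = 0.00933). The chemokine CXCL8 rose on 62 counts against 6 untreated (edgeR adjusted p = 0.00175). It passed the filter only through the baicalein 20 µM libraries. Its lower level with genistein than with baicalein was thus set by the filter and does not count as a result. Of the 6 IKK-related kinases 0 were called, with 1 at an unadjusted p under 0.05. At 10 µM, edgeR called 0 of the 56 with either drug, with 8 (genistein) and 10 (baicalein) at an unadjusted p under 0.05. Compared with baicalein at 20 µM, genistein had 29 of the 56 lower and 12 higher, against 48.7% of all genes called (25.4% higher, 23.3% lower). The interaction called 17 lower and 8 higher, against 32.8% of all genes (17.3% higher, 15.5% lower). Both counts include genes that passed the filter only through baicalein at 20 µM.

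In PC-3, 48 of 68 listed genes were higher and 11 lower than in LNCaP, where 74.9% of all genes were called (37% higher, 37.9% lower). All 18 tested target genes were higher, with a median log2 difference of 8.65, or 7.32 with the 5 genes that had no count in 1 group set at their bound. Only 8 of the 21 listed targets passed the filter in LNCaP. Targets near silent in untreated LNCaP, such as CXCL1 (0 counts against 7040), passed it here through PC-3 alone and could only come out higher. This count and median therefore do not describe the targets as a set. The same holds for some receptors and ligands, such as TLR2 (0 counts against 472). CXCL8 held 18777 counts in PC-3 and 6 in LNCaP, and the urokinase gene PLAU 23301 and 1. Receptors and ligands had 10 higher and 3 lower of 13, a count that includes genes of this kind. IL1B (26 counts in LNCaP against 1322) also passed the filter through PC-3 alone and could only be higher. The RANK receptor TNFRSF11A, at 187 counts in LNCaP, was higher by log2 4.18 ± 0.15 (edgeR adjusted p = 1.02e-06). Among the feedback genes BCL3, an atypical inhibitor that can act as a coactivator, was 4.62-fold higher (edgeR adjusted p = 2.42e-05) and TNIP1, a partner of TNFAIP3, 3.65-fold (edgeR adjusted p = 5.94e-05).

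**Figure D5:**
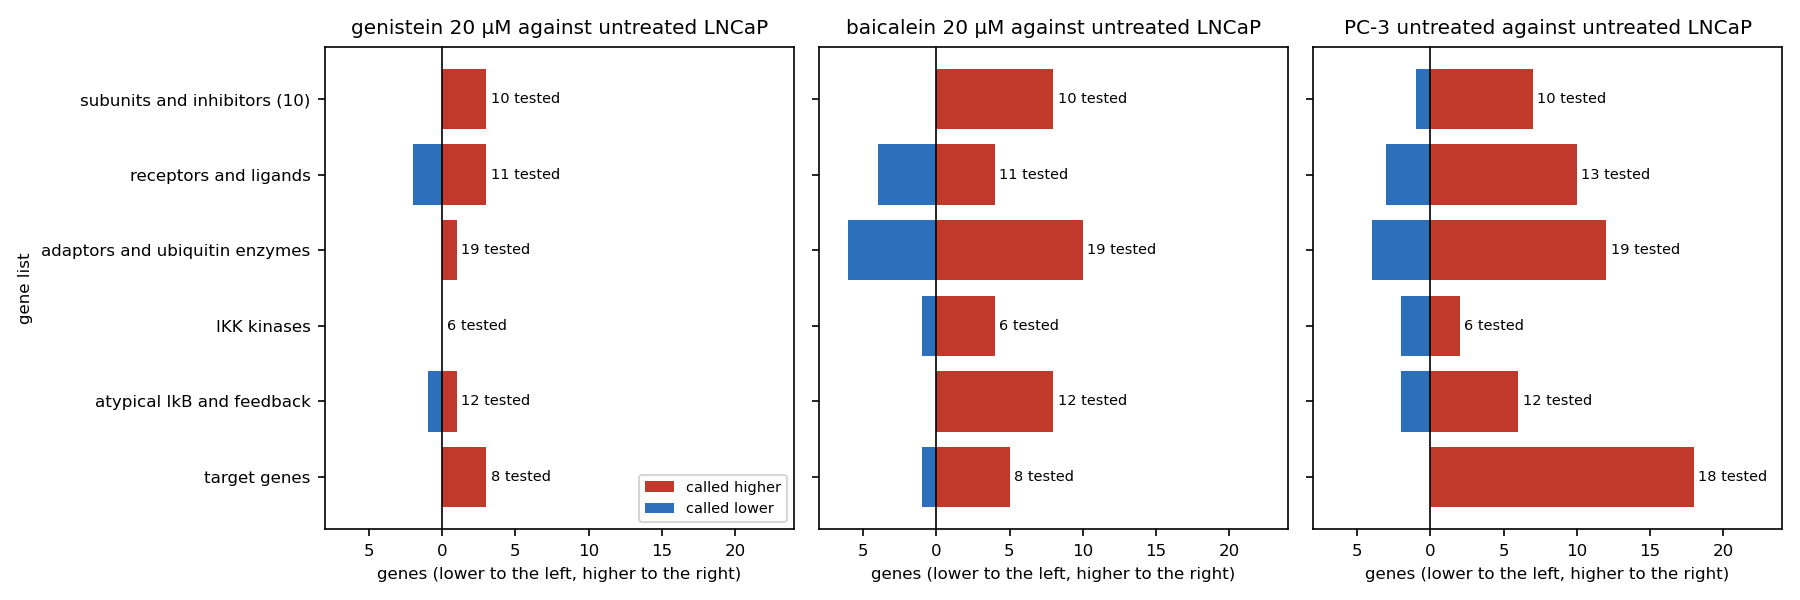
Number of genes called higher (right, red) and lower (left, blue) than untreated LNCaP in each list, for genistein 20 µM, baicalein 20 µM and untreated PC-3; labels give the number tested. Baicalein at 20 µM raises 8 of the 10 subunits and inhibitors, where 29.4% of all genes were called higher. All 18 target genes tested are higher in PC-3, where 37% of all genes were called higher. Targets near silent in LNCaP passed the filter through PC-3 alone and could only be higher.

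Set beside the promoter sequences above, members with and without a kappa B match were found among those that rose. With baicalein at 20 µM, NFKBIA, TNFAIP3 and BIRC3, each with a match, rose, and so did NFKB2, NFKBIB and RELA, which have 0 matches in their windows. The RELA window does not adjoin the counted gene. NFKB1 and REL hold matches and were not called. This is a description of 8 windows, and no test was made of it.

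The profile of each member over the 6 groups was compared with those of 11940 other genes of at least 5 CPM, by the root mean square difference of group means centred on each gene (log2 CPM); the pool for REL was 11941 genes. The gene nearest to RELB was MAFF, a small MAF transcription factor (0.148, against a range of 4.23 over the groups for RELB). NFKBIB was nearest to NFKB2 itself (0.109, range 2.60), and NFKB2 to TSC22D2 (0.0877). NFKBIE was nearest to the spermine oxidase gene SMOX (0.102) and the AP-1 gene FOSL2 (0.103), RELA to the nuclear receptor NR1D1 (0.0725), NFKBIA to TIGD5 (0.0897), TNFAIP3 to TUBB3 (0.154), BIRC3 to TCEAL9 (0.137), NFKB1 to SPG7 (0.0531) and REL to CLDN15 (0.172). These distances describe likeness over 6 group means.

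Libraries held between 10013567 and 18445711 counts, so 3 counts correspond to 0.163 to 0.2996 CPM. Markers fitted the labelled lines: for KLK3, a marker of LNCaP, untreated LNCaP libraries held 1516 ± 131 CPM, whereas PC-3 libraries held 1.66 ± 0.597 CPM (SD, n = 3), and the summed level of the PC-3 markers CAV1, VIM and CD44 was 6.32 to 6.76 and 2445 to 2685 CPM. In the baicalein 20 µM libraries, where the 8 members rose, KLK3 stood at 171 ± 61.8 CPM. The PC-3 marker sum there was 20.7 to 21.6 CPM. With genistein at 20 µM they were 727 ± 12.6 and 13.6 to 15.6 CPM. Nearly all of that sum was VIM, at 20.3 CPM by mean with baicalein and 14.0 with genistein at 20 µM, against 6.24 untreated. CAV1 and CD44 stayed low, at 0.337 and 0.359 CPM with baicalein and 0.173 and 0.405 with genistein at 20 µM. The part of KLK3 and these markers in the results was not tested. Of the endothelial markers, CDH5 was at 0 in every library, and PECAM1 stood at 3.29 to 6.03 CPM in PC-3, at 0.405 to 0.640 CPM with baicalein at 20 µM and at no more than 0.0694 CPM in the other LNCaP groups. Fibroblast DCN was at most 0.252 CPM, and COL1A1 lay between 7.04 CPM (in PC-3) and 16.3 CPM (with baicalein at 20 µM) over all libraries. T cell CD3E was at 0 in all but 1 library; of the other leukocyte markers CD68 stood at 35.3 ± 3.91 CPM in PC-3 with PTPRC at 0.246 ± 0.144 CPM (SD, n = 3). In bulk RNA, fewer cells that express a gene and less RNA per cell cannot be told apart. Short exon stretches are shared with opposite-strand genes for NFKBIB (1.72%, SIRT2), TNFAIP3 (1.88%) and RELA (0.165%), and the library kit does not mark strand, so reads there cannot be assigned.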

How the data were processed

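Gene-level counts, deposited by the authors as whole numbers per gene and library, were analysed for 18 libraries in 6 groups of 3, assigned by sample labels. The submitters' processing notes name the build GRCh38 and, as tools, DESeq2 1.20.0, featureCounts 1.6.4, STAR 2.7.6a and fastp; roles, strand setting and annotation release are not given in the sources used here. The table's 18 FPKM columns were left out since their headers give all 6 baicalein libraries 20 µM, against 3 at each dose in the count headers used here, as were its 13 comparisons of coded groups.

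Counts were tested with edgeR 4.0.16 in R 4.3.3 (TMM, default low-count filter, robust quasi-likelihood F test). The 15 LNCaP libraries entered 1 fit (16985 genes, 10 residual degrees of freedom) and the 6 untreated libraries another (17259 genes, 4 residual degrees of freedom). P-values were adjusted over all genes within each of 10 comparisons, with calls under 0.05. Standard errors were derived from F and the unshrunken log2 fold change. Replicates may be technical, and p-values then reflect library spread alone; chi-square per degree of freedom within groups was 12.0 to 97.6, so none were duplicates. Floors (3 counts) cover counting error only. Exon lengths and overlaps came from GENCODE 29, matched to 58228 identifiers. The script was tested on simulated counts.

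All 10 members are named. Of the LNCaP markers, KLK3 alone is given; the others are not reported here. Of the pathway list the rule takes, per role and comparison, the 2 called genes with the smallest adjusted p, some of which are given here, and for each member the 2 nearest profiles. MAP3K14 meets this rule over the baicalein step and not against untreated. Some genes named for how they passed the filter are examples outside the rule. The members and lists were chosen with earlier results of these data known. Alternatives were RLE factors, DESeq2 1.42.0, no filter, each library left out, a replicate block, no mitochondrial genes, GC and length trends removed, and only the compared groups.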

Additional observations from a re-analysis of the deposited data

Results flagged for a closer look

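The step from 10 to 20 µM differed between genistein and baicalein for 7 of the 10 genes, by the interaction test in edgeR. The genistein step minus the baicalein step, on the log2 scale, was -3.63 for TNFAIP3 (adjusted p = 2.58e-05), -3.06 for RELB (adjusted p = 5.7e-06), -2.25 for NFKBIB (adjusted p = 5.92e-05) and -2.21 for NFKB2 (adjusted p = 1.13e-05). It was -1.73 for NFKBIE (adjusted p = 0.00461), -1.49 for NFKBIA (adjusted p = 7.24e-05) and -1.33 for RELA (adjusted p = 0.0128). Each of these 7 calls was made again in all 6 alternative settings and without each of the 12 libraries in turn. Of all genes tested, 32.8% were called for this difference.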

How the results depend on the processing

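With baicalein at 20 µM, against genistein at 20 µM (apart from BIRC3), for the interaction and in PC-3 (apart from NFKBIB), every called rise or difference of a member was called again in all alternatives run, and no member reversed a call. The number of members called with genistein at 20 µM fell from 3 to 1 with no low-count filter, to 1 with the replicate block, and to between 1 and 1 without each of the 6 libraries in turn; RELB was called in each. Without mitochondrial genes the higher calls also fell from 3 to 1, RELB, and NFKB1 was called lower. The adjusted p of NFKB2 there rose to 0.0770 over the settings and that of NFKBIB to 0.0700. With the replicate block no other count of members changed by more than 1.5 times. Replicate numbers did not pair the samples: deviations of same-numbered LNCaP libraries had a median correlation of -0.043 (lowest -0.469), and those of untreated PC-3 and LNCaP one of 0.065 (lowest -0.023).

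NFKB1 was called lower with genistein at 20 µM by RLE factors (adjusted p = 0.0416), DESeq2 (0.00819), without mitochondrial genes (0.0333) and with GC and length trends removed (0.0164). With baicalein at 20 µM it was called by RLE factors (0.0491), DESeq2 (0.0118), with no filter (0.0300) and without mitochondrial genes (0.0199), and without untreated replicate 1 (0.0473) or baicalein replicate 2 (0.0290). Its call over the baicalein step was lost with no filter or only the compared groups (up to 0.224), as was that of BIRC3 between the drugs (up to 0.0978). Removing GC and length trends added calls for BIRC3 with genistein at 20 µM (0.0481) and for the interaction (0.0133) and for NFKB2 over the genistein step (0.000775), and lost NFKBIB with genistein.

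Over all genes, DESeq2 called 128 with genistein and 400 with baicalein at 10 µM, against 19 and 68 by edgeR, and 56 against 1 between the drugs; 0 members were among them. Low counts limit RELB and TNFAIP3 in untreated LNCaP and REL throughout.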
